A study of Homo sapiens with 6 samples.

Results

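The genes described here are the ABC (ATP-binding cassette) transporter genes of LNCaP, an established cell line that responds to androgen and derives from a lymph node metastasis of human prostate cancer. They were taken by symbol, as every gene named ABC with a subfamily letter from A to G and a number, together with TAP1 and TAP2, which belong to subfamily B, and CFTR, which belongs to subfamily C. Of 49 such genes in the RefSeq gene table, 45 had a probe set that names them alone and are described here, out of 19775 genes on the arrays. The other 4 were not analysed here. All cultures spent 3 days in RPMI without phenol red, with 10% serum that had been stripped of steroids with charcoal and dextran. The DHT group of 3 cultures was then stimulated with 100 nM dihydrotestosterone, the strongest of the natural androgens, for 48 h. The control group comprised 3 cultures without that stimulation, and the sources used here do not give their vehicle. The comparison asked which transcripts differ in these cells once androgen is returned. The cells of both groups are 1 cancer line, and each array holds the RNA of 1 culture.

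ABC proteins share a nucleotide-binding domain that hydrolyses ATP. In most of them it is joined to membrane-spanning segments and drives lipids, drugs, conjugates, peptides or metals across a membrane. Subfamily A moves lipids and sterols, subfamily B serves mitochondria, lysosomes, antigen presentation and drug export, and subfamily C contains the multidrug resistance proteins together with 2 regulators of potassium channels and the chloride channel CFTR. Subfamily D acts in peroxisomes and lysosomes, subfamily G exports sterols and drugs, and subfamilies E and F have no membrane segments and act on ribosomes. ABCC4, also called MRP4, exports cyclic nucleotides, prostaglandins and steroid conjugates and is abundant in the luminal epithelium of the prostate.

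Each array measured its probe sets as signal intensities on a linear scale. The 3 arrays of a group correlated at r = 0.973 to 0.978 across probe sets, and arrays of different groups at r = 0.958 to 0.966. Probe sets are not independent replicates. The labels call the cultures of a group biological replicates without saying whether they were grown apart in time, so the p-values reflect how much these 6 cultures varied and nothing wider. Precision is limited by there being 3 arrays in a group. Of the 7 luminal prostate markers, 5 had a probe set and all 5 were above the limit on dim probe sets, KLK3 (prostate-specific antigen) with a mean signal of 2186 ± 261 without and 8985 ± 441 after DHT (SD over 3 arrays). With DHT 3 of them passed as higher and 1 as lower, the keratin KRT8, which fell from 595 to 437 (limma adjusted p = 0.0046). Their summed signal, most of it from KLK3 and KRT18 and, with DHT, TMPRSS2, was 5647 to 6306 on the control arrays and 14671 to 15572 on the DHT arrays. Of 14 markers of basal, stromal, blood, neuroendocrine and liver cells, 6 were above the limit, none was at 0, and their summed signal was 579 to 604 on the control arrays and 524 to 559 with DHT. The collagen gene COL1A1, a stromal marker, fell from 198 to 132 (limma adjusted p = 0.0172), while another, VIM, had 205 in the controls and 259 with DHT and did not pass (adjusted p = 0.0882). Their part in the results below was not tested.

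To show what lies upstream of these genes, the 250 bases before the annotated start are printed for the members that passed the test and have an entry in the RefSeq promoter table (build GRCh38.p14), which are ABCC4 and ABCA2, the latter with 2 starts. ABCA5 and ABCA6, which lie in the same cluster of subfamily A genes, are shown beside them as a member above and a member below the limit on dim probe sets. All lie on the minus strand and are written 5′ to 3′, with the start of transcription just beyond the last base. Capitals mark the GC box, GGGCGG or its reverse complement CCGCCC, the motif of the SP1 family of factors. The positions are chr13:95301452-95301701 for ABCC4, chr9:137028238-137028487 and chr9:137028923-137029172 for ABCA2 starts 1 and 2, chr17:69327134-69327383 for ABCA5 and chr17:69141896-69142145 for ABCA6.
ABCC4: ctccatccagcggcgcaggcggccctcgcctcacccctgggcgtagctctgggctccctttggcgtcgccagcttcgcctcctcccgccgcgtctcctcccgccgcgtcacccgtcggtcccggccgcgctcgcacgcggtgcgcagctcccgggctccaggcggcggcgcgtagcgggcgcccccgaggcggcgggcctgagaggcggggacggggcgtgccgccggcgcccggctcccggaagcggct
ABCA2 start 1: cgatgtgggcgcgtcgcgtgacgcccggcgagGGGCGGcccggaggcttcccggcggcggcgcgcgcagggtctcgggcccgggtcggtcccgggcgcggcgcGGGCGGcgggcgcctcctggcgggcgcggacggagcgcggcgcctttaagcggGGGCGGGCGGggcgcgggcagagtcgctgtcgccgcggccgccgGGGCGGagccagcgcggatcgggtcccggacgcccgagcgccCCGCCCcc
ABCA2 start 2: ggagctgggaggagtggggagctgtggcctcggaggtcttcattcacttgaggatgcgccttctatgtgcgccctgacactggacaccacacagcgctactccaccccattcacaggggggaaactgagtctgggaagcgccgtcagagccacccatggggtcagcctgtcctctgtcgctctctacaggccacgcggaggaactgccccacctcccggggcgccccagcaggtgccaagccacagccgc
ABCA5: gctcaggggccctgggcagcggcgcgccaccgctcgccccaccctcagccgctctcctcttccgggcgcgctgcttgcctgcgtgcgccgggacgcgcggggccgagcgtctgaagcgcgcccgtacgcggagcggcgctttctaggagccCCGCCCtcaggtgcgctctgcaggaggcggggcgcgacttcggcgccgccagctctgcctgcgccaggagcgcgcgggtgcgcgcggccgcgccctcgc
ABCA6: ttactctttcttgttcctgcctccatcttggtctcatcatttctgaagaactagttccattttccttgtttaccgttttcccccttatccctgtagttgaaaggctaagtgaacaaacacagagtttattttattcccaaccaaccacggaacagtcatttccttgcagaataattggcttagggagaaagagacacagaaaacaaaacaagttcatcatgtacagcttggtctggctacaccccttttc

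Of the printed sequences, the ABCC4 window is 80.4% G and C and holds 0 GC boxes. ABCA2 start 1 is 85.6% G and C with 6 GC boxes, while its start 2 is 65.2% G and C with 0. The ABCA5 window is 79.2% G and C with 1 GC box, and that of ABCA6 is 40.8% G and C with 0. None of the 5 windows holds TATAAA, the TATA box, AGAACA, the core motif bound by the androgen receptor, or its reverse complement TGTTCT. Across the 53 promoter entries of the 36 members found in the table, a GC box was present in 52.8%, against 42.6% of all 35116 entries, both strands searched. AGAACA was present in 11.3% of the entries of members and 12.4% of all entries. TATAAA was present in 11.3% and 10.7%. The E-box CACGTG was present in 17.0% and 6.34%. The full androgen response element, AGAACA followed after any 3 bases by TGTTCT, was present in 0 entries of members and 1 of all entries. These are matches of letters in short windows, not sites.

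The signal of a gene was read from the brightest probe set that names it alone. A signal depends on the probes as well as on the transcript, so that levels of different genes are given as array signals and not ordered as transcript amounts. The lowest 40% of probe sets, those under a mean signal of 17.3 on the log2(signal + 16) scale, were not tested. Of the 45 members, 28 were above that limit and 17 below it. Just inside were ABCC11 and ABCC13, with mean signals of 19.4 and 19.8 on that scale, and just outside were ABCC8 and ABCB1, with 15.7 and 14.7. The limit uses the mean of all 6 arrays, so that a gene high in only 1 group can still pass it. ABCC11 and ABCC13 had control means of 15.8 and 15.9, under the limit, and DHT means of 26.1 and 25.3.

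Subfamilies E and F, which act on ribosomes, were above the limit in all 4 of their members. ABCE1, which splits ribosomes apart for recycling, is the only member of its subfamily and gave 676, 589 and 612 in the controls and 608, 623 and 580 with DHT. In subfamily A 6 of 11 members were above the limit, in B 6 of 10, in C 7 of 12, in D 2 of 3 and in G 3 of 5. The median over members of the mean signal was 24.8 in A, 49.0 in B, 20.8 in C, 107.7 in D, 321.7 in F and 23.3 in G. In C the mean signal of a member ran from 2.08 for ABCC2 to 520 for ABCC1, and in A from 2.82 for ABCA13 to 334 for ABCA2. In B it ran from 7.08 for ABCB11 to 200.2 for ABCB6, in D from 9.43 for ABCD2 to 466 for ABCD3, in F from 178 for ABCF3 to 467 for ABCF1, and in G from 2.82 for ABCG5 to 125 for ABCG1.

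**Figure D1:**
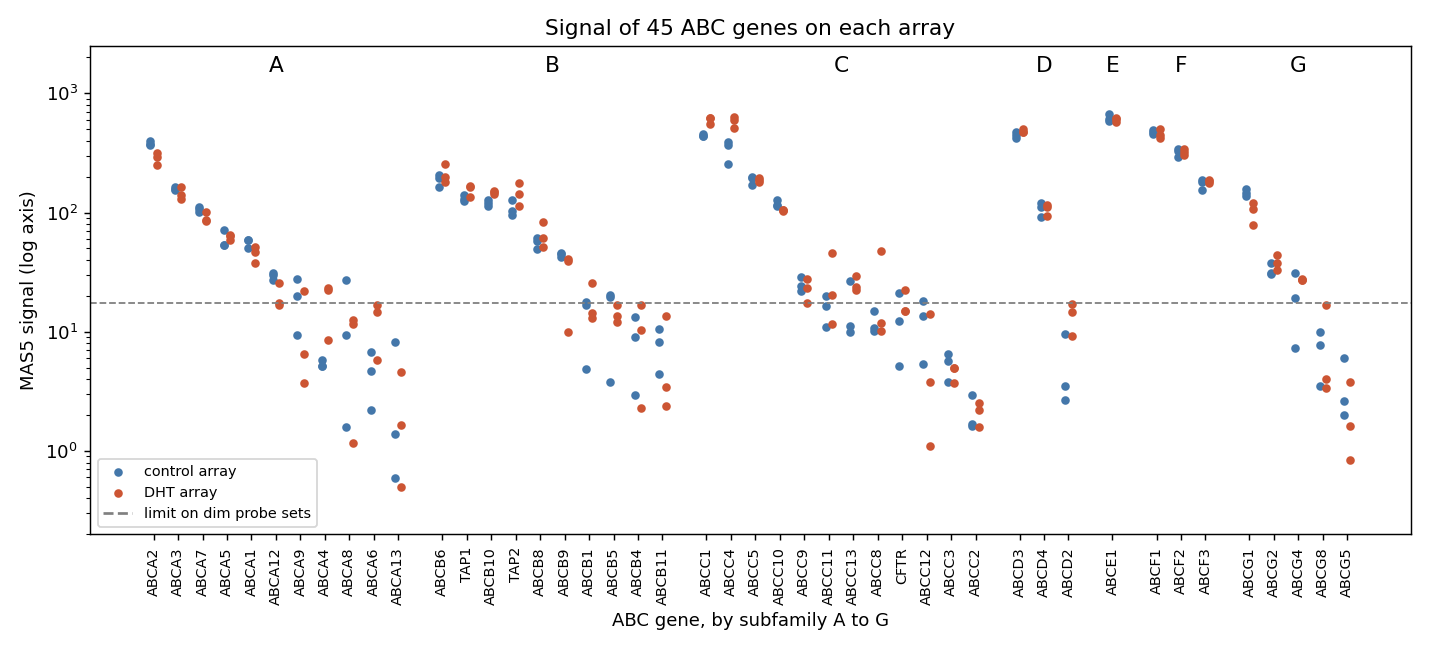
MAS5 signal on a log axis of the 45 ABC genes on each of the 3 control and 3 DHT arrays, each point 1 array, with members ordered by mean signal within subfamilies A to G and the limit on dim probe sets as a dashed line. Members of E and F lie above the line on every array, while each other subfamily with more than 1 member spans it, from 2.08 to 520 in subfamily C.

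The members below the limit include transporters known from other tissues. They are ABCA4 of the retina, ABCA6, ABCA8, ABCA9 and ABCA13, the drug exporter ABCB1 (P-glycoprotein), ABCB4 and ABCB11, which export phospholipid and bile salts into bile, ABCB5, ABCC2, ABCC3, the potassium channel regulator ABCC8, ABCC12, CFTR, ABCD2, and ABCG5 and ABCG8, which together export plant sterols. Their mean signals ran from 2.08 to 17.6. The highest value on any array was 47.9, for ABCC8 in DHT replicate 3, where its other 5 arrays were between 10.1 and 15.1. In its chosen probe set ABCB1 had 4.92, 16.7 and 17.7 in the controls and 25.5, 14.4 and 13.1 with DHT, so that the groups overlapped. Its other probe set (243951_at), also below the limit, did not overlap, with 1.73, 7.44 and 8.31 against 14.8, 19.2 and 16.3. By the chosen probe sets ABCA4 was the only one of these 17 whose groups did not overlap. It had 5.19, 5.79 and 5.14 in the controls and 8.51, 23.2 and 22.4 with DHT, and was not tested. Among the other dim probe sets of these 17, 1 of ABCB1 and 1 of ABCA13 had all DHT arrays above the controls, and 1 of ABCA9 and 1 of ABCC3 all below. A dim probe set of ABCC9 (235578_at), a member above the limit, also had all DHT arrays above. It gave 1.04, 1.71 and 0.949 in the controls and 24.0, 3.61 and 14.1 with DHT. The share without overlap over all genes or all probe sets below the limit was not counted. A dim signal here does not show that a transcript was absent.

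Members above and below the limit also differed in the composition of their promoter windows, which the choice of probe sets did not use. A GC box was found in at least 1 window of 22 of the 25 members above the limit that have an entry, 88.0%, and of 1 of the 11 below it, 9.09%. Over all genes with a probe set and an entry the shares were 69.7% of 11354 above the limit and 41.7% of 4030 below it. The members above the limit without a GC box were ABCC4, ABCE1 and ABCA12, a lipid carrier of the skin, and the member below it with one was ABCD2, a carrier of very long-chain fatty acids in peroxisomes. The median G and C content of the richest window of a member was 68.4% above the limit and 50.8% below it, against 66.0% and 57.6% for all genes. These are descriptions without a test, and genes with several entries have more chances to hold a motif.

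**Figure D2:**
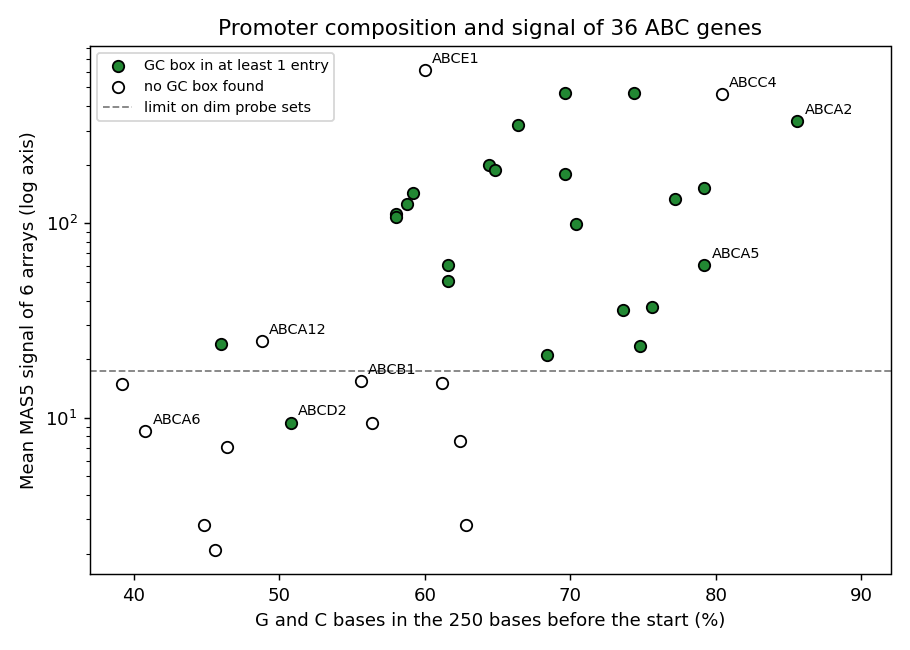
Mean MAS5 signal over 6 arrays (log axis) against the percentage of G and C in the 250 bases before the start, taking the richest entry of each of 36 ABC genes, filled where any entry holds a GC box. Filled points are 22 of the 25 members above the dashed limit and 1 of the 11 below it, and ABCC4 is an open point at 80.4%.

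The neighbouring genes of the family did not all lie on the same side of the limit. In the cluster of subfamily A, where the RefSeq order (GRCh38.p14) is ABCA8, ABCA9, ABCA6, ABCA10 and ABCA5, ABCA5 had 53.2, 53.5 and 71.1 in the controls and 59.4, 65.1 and 63.1 with DHT, while ABCA8, ABCA9 and ABCA6 were below the limit. ABCC11 lies next to ABCC12, which was below the limit. ABCC11 gave 11.02, 19.9 and 16.6 in the controls and 46.1, 20.5 and 11.6 with DHT, so that its control mean of 15.8 was itself under the limit and DHT replicate 1 lifted it above. The neighbours ABCB4 and ABCB1, and ABCG5 and ABCG8, were all below it.

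With DHT, 4 of the 28 tested members passed an adjusted p of 0.05 in limma, which is 14.3% against 13.3% of all 14121 genes tested, a share near that background. On the scale of the deposited signals, which sets each transcript against the array's average, ABCC4 and ABCC1 were higher and ABCA2 and ABCG1 lower, except that with arrays scaled to the hybridisation spikes ABCC1 had -0.11 and ABCC4 did not pass. Of all genes tested, 7.16% passed as higher and 6.14% as lower. The higher ones made up 53.8% of all calls, against 39.9% with equal array medians and 1.97% with spike scaling, which moved the median difference of all genes from 0.02 to -0.35. With spike scaling 15 of the 28 members passed, all as lower, and 50% of all genes passed. Whether that scaling reflects the RNA content of the cells was not tested, and it is given as an alternative only. The arrays of the groups did not overlap for 10 of the 28 tested members, against 31.1% of all genes tested. They were 4 with all DHT arrays above (17% of all genes tested) and 6 with all DHT arrays below (14.1%). Over all 45 members the median difference was 0.03 on the log2(signal + 16) scale, against 0.02 over all genes with a probe set. In RNA of whole cultures, fewer cells that express a gene and less of its RNA per cell cannot be told apart.

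**Figure D3:**
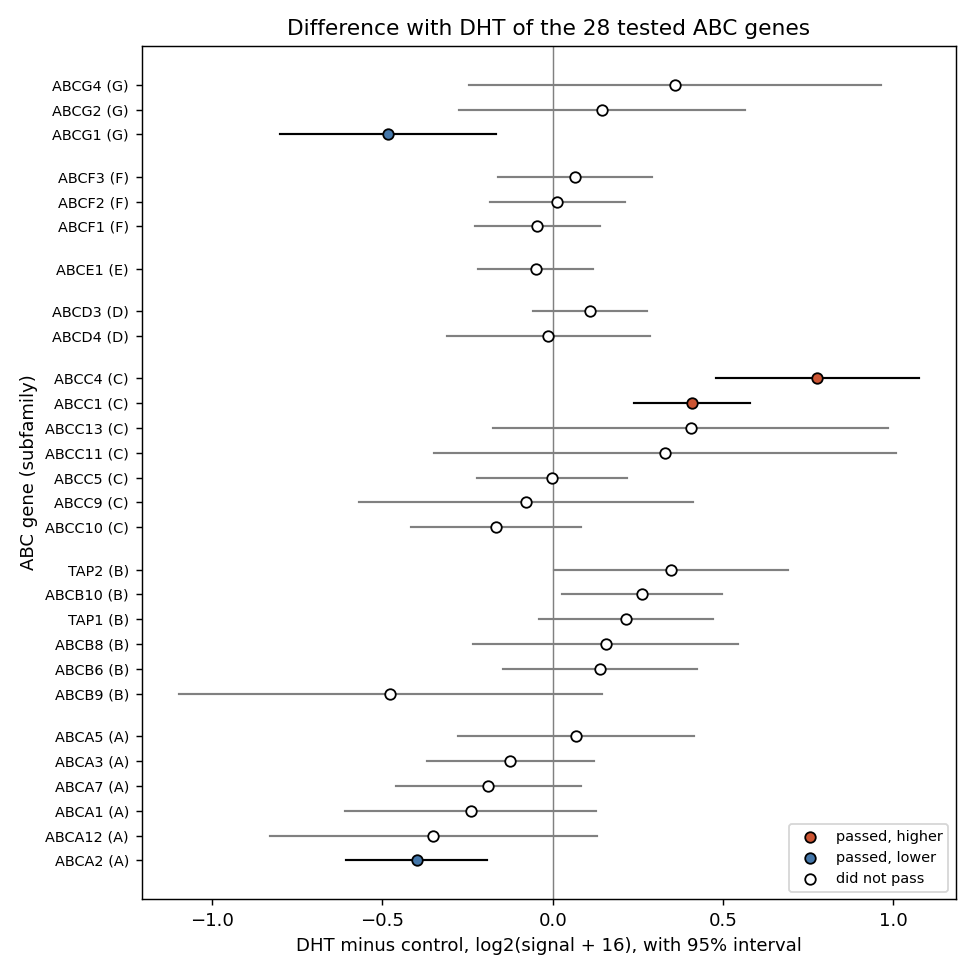
DHT minus control on the log2(signal + 16) scale for the 28 ABC genes above the limit, with 95% intervals of limma, grouped by subfamily, and with filled points for those that passed. ABCC4 at 0.78 and ABCC1 at 0.41 lie to the right, ABCA2 at -0.40 and ABCG1 at -0.48 to the left, and the open points lie between -0.48 and 0.41.

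By the brightest probe set and on the deposited scale, ABCC4 had the largest difference among the tested members. With averaged probe sets it had 0.72 and ABCA2 -0.74, and with spike scaling ABCA2 had -0.91 and ABCG1 -0.96. Its brightest probe set (203196_at) gave signals of 257, 366 and 388 in the controls and 639, 595 and 514 with DHT. The lowest DHT array stood above the highest control array, and control replicate 1 was lower than the other two controls. The mean signal rose 1.73-fold, and was 337 ± 69.7 without and 583 ± 63.5 after DHT (SD over 3 arrays). The log2 difference was 0.78 ± 0.14 (SE; 95% interval 0.48 to 1.07; limma adjusted p = 0.00328). This was number 247 of 14121 genes in the order of differences from the highest.

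The other ABCC4 probe sets moved with it. Probe set 1554918_a_at went from 236, 193 and 282 to 400.0, 360 and 480, with a difference of 0.77 ± 0.14 (limma adjusted p = 0.00471 over probe sets). Probe set 1555039_a_at went from 158, 178 and 187 to 275, 254 and 302, with 0.62 ± 0.10 (limma adjusted p = 0.003 over probe sets). In both the groups did not overlap. The remaining probe set 243928_s_at was below the limit, with 12.7, 6.90 and 4.54 against 24.8, 7.54 and 16.1. Without the control array that was low in the brightest probe set the ABCC4 difference still passed, since leaving out any array gave 0.60 to 0.88 (limma adjusted p = 0.00396 to 0.0187). With spike scaling it was 0.26 (adjusted p = 0.21).

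ABCC1, or MRP1, which exports glutathione conjugates and leukotrienes, was also higher. Its brightest probe set (202804_at) gave 441, 457 and 436 in the controls and 623, 549 and 617 with DHT. All DHT arrays were above all controls. The mean went from 445 ± 10.7 to 596 ± 41.0, a 1.34-fold difference, with 0.41 ± 0.08 on the log2 scale (SE; limma adjusted p = 0.00512). Its other probe set (202805_s_at) gave 165, 247 and 245 against 227, 199.8 and 173, which overlapped, with a difference of -0.11 ± 0.15 (adjusted p = 0.721 over probe sets). ABCC1 did not pass when its probe sets were averaged (0.15, adjusted p = 0.385), with equal array medians (0.35, adjusted p = 0.07) or without the intensity trend (adjusted p = 0.052).

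The other members of subfamily C did not pass. ABCC5, or MRP5, an exporter of cyclic nucleotides like ABCC4, gave 170, 199.9 and 196 in the controls and 195, 181 and 188 with DHT. The difference was 0.00 on the log2 scale with a 95% interval from -0.22 to 0.22, and its other tested probe sets had -0.06 and 0.01. ABCC10, or MRP7, gave 115, 128 and 115 against 105, 103 and 104, where all DHT arrays were below the controls but the difference of -0.17 had an interval from -0.42 to 0.08 (limma adjusted p = 0.396). ABCC9, the SUR2 regulator of potassium channels, had -0.08 at signals of 17.5 to 28.6. The dim ABCC11 (0.33) and the transcribed pseudogene ABCC13 (0.41) had standard errors of 0.31 and 0.27, and control means under the limit. The median over all 12 members of the subfamily was 0.12, between 0.01 and 0.19 when 1 array was left out, and -0.09 with spike scaling.

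**Figure D4:**
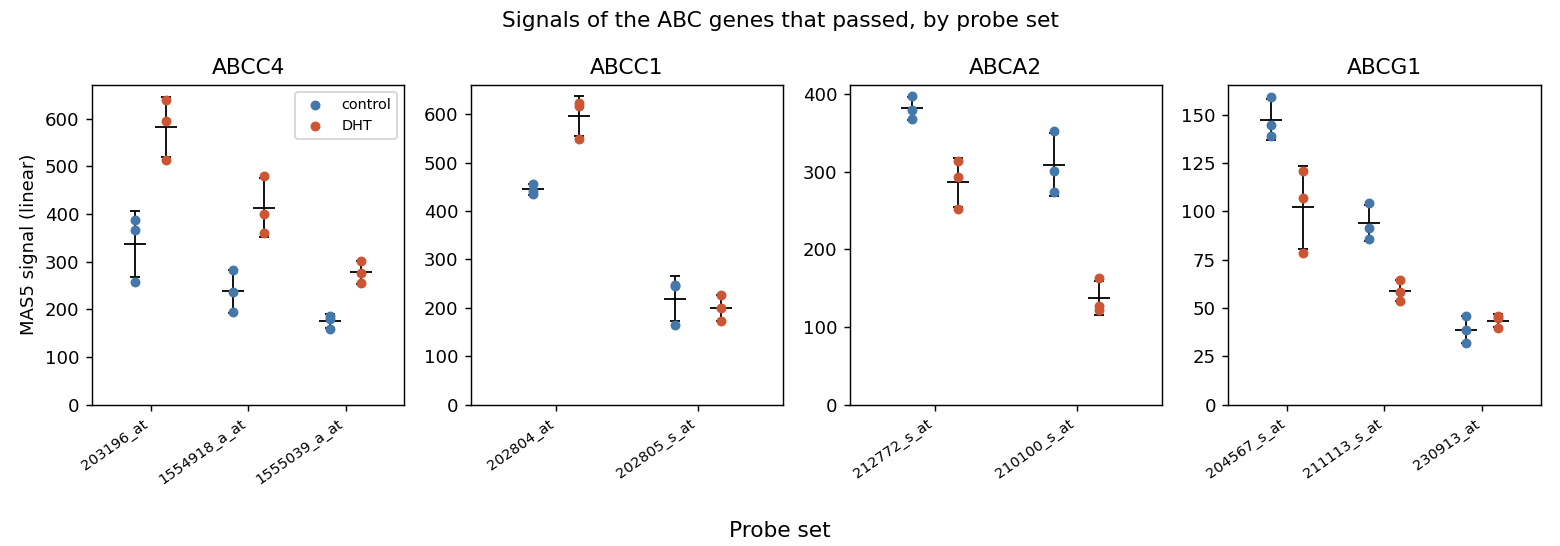
MAS5 signal (linear axis from 0) of every tested probe set of ABCC4, ABCC1, ABCA2 and ABCG1, with each point 1 array and bars for mean and SD of 3 control and 3 DHT arrays. All 3 ABCC4 probe sets and both ABCA2 probe sets separate the groups, while 202805_s_at of ABCC1 and 230913_at of ABCG1 do not.

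In subfamily A, ABCA2, a sterol and sphingolipid carrier of late endosomes and lysosomes, was lower with DHT. The brightest probe set (212772_s_at) gave 398, 367 and 380 in the controls and 314, 293 and 252 with DHT. All DHT arrays were below all controls. The mean fell from 382 ± 15.3 to 286 ± 31.4, 1.33-fold lower, with a difference of -0.40 ± 0.09 (SE; limma adjusted p = 0.0161). Its other probe set (210100_s_at) had a larger difference, from 301, 274 and 353 to 163, 122 and 127, at -1.09 ± 0.13 (adjusted p = 0.000365 over probe sets). Without control replicate 1 or DHT replicate 3 the brightest probe set did not pass (-0.37, adjusted p = 0.0519, and -0.32, adjusted p = 0.0593), nor without the intensity trend (adjusted p = 0.0786).

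The remaining lipid carriers of subfamily A had no call. ABCA1, which loads cholesterol onto apolipoprotein A-I, gave 50.7, 58.6 and 58.8 in the controls and 46.3, 38.0 and 51.0 with DHT, with -0.24 and a 95% interval from -0.61 to 0.13. ABCA7, a phospholipid carrier, gave 107, 110.3 and 101 against 85.6, 87.3 and 100.5, which did not overlap, with -0.19 (limma adjusted p = 0.375). ABCA12 gave 31.4, 27.4 and 30.1 against 25.8, 16.7 and 17.5, also without overlap, with -0.35 (adjusted p = 0.354). ABCA3, known from lung surfactant, had -0.12 and ABCA5 had 0.07. In 5 of the 6 tested members the DHT mean was lower, and the median over all 11 members was -0.17, between -0.06 without DHT replicate 3 and -0.61 with spike scaling.

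Of the sterol exporters in subfamily G, ABCG1, which hands cholesterol to high-density lipoprotein and is a classic target of the LXR nuclear receptors, was lower. Its brightest probe set (204567_s_at) gave 139, 145 and 159 in the controls and 78.6, 121 and 107 with DHT. The groups did not overlap, and DHT replicate 1 was the lowest array. The mean fell from 147 ± 10.4 to 102 ± 21.6, with -0.48 ± 0.14 (SE; limma adjusted p = 0.047). Adjusted over probe sets, this probe set did not pass (limma adjusted p = 0.0564). Probe set 211113_s_at gave 91.4, 85.9 and 104 against 58.5, 64.5 and 53.8, with -0.55 ± 0.14 (adjusted p = 0.0286 over probe sets), while 230913_at gave 31.9, 45.6 and 38.8 against 45.8, 44.6 and 39.5, with 0.12. The call is close to the threshold and was lost on leaving out any single array other than DHT replicate 2 (limma adjusted p = 0.0766 to 0.156), with a pseudocount of 1 (0.0516), with no limit on dim probe sets (0.0952), without the intensity trend (0.11) and when its probe sets were averaged (-0.31, adjusted p = 0.117). The drug exporter ABCG2, or BCRP, gave 37.4, 30.8 and 30.7 against 32.8, 37.8 and 44.1, which overlapped (0.14, 95% interval -0.27 to 0.56). ABCG4, a sterol carrier of the brain, had 0.36 ± 0.28 from signals of 7.26 to 31.2.

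In subfamily B none of the 6 tested members passed an adjusted p of 0.05 in limma, although at an unadjusted p under 0.05 ABCB10 and TAP2 were higher. ABCB10, of the inner mitochondrial membrane and needed for haem synthesis, gave 120, 113 and 127 in the controls and 148, 151 and 143 with DHT. All its DHT arrays were above the controls, with a difference of 0.26 ± 0.11 (limma adjusted p = 0.14). ABCB6, a porphyrin carrier, had 0.14, and the mitochondrial ABCB8 had 0.16 in the brightest probe set. The other tested ABCB8 probe set (206317_s_at) gave 73.3, 55.7 and 48.1 against 36.8, 36.9 and 35.9. All DHT arrays were below the controls there, with -0.50 ± 0.18 (limma adjusted p = 0.106 over probe sets). ABCB9, which takes peptides into lysosomes, gave 45.8, 42.0 and 44.9 against 39.5, 40.4 and 9.87, where 1 array, DHT replicate 3, was far below the rest. Its difference was -0.48 ± 0.28 (limma adjusted p = 0.324), and leaving out 1 array at a time gave -0.57 to -0.11. The other tested ABCB9 probe set (207321_s_at) gave 38.3, 36.7 and 62.7 against 18.1, 12.5 and 43.1, which overlapped. There DHT replicate 3 was the highest DHT array, and the difference was -0.66 ± 0.28 (limma adjusted p = 0.182 over probe sets).

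TAP1 and TAP2 form the pump that brings peptides into the endoplasmic reticulum for loading onto class I molecules. TAP1 gave 139.9, 124 and 129 in the controls and 168, 134 and 163 with DHT, and TAP2 gave 103, 95.3 and 126 against 176, 142 and 113. In both the groups overlapped, with differences of 0.21 ± 0.12 (limma adjusted p = 0.278) and 0.35 ± 0.16 (adjusted p = 0.186). The other tested TAP2 probe sets had 0.48 and -0.11. With 5 of 6 tested members higher in the mean, the median over the 10 members of subfamily B was 0.15, between 0.01 and 0.24 when 1 array was left out, and -0.24 with spike scaling.

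Subfamily D had no call in the brightest probe sets. ABCD3, the abundant peroxisomal membrane protein PMP70, gave 473, 422 and 449 in the controls and 502, 477 and 475 with DHT. All DHT arrays were above the controls by a small margin, with 0.11 and a 95% interval from -0.06 to 0.28, and with spike scaling the difference was -0.41 (limma adjusted p = 0.0413). Its other probe set (1554878_a_at) went the other way, from 244, 224 and 225 to 167, 170 and 168, with -0.42 ± 0.09 (adjusted p = 0.0138 over probe sets). ABCD4, which passes cobalamin out of lysosomes, gave 112, 121 and 91.8 against 111, 93.9 and 116, with -0.01.

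In the brightest probe sets the 4 ribosome-acting members had no call, and their intervals spanned 0. ABCE1 had -0.05 with a 95% interval from -0.22 to 0.12. ABCF1, which takes part in the initiation of translation, gave 472, 459 and 491 in the controls and 506, 450 and 424 with DHT, with -0.05 and an interval from -0.23 to 0.14. ABCF2 had 0.01 (-0.18 to 0.21) and ABCF3 had 0.07 (-0.16 to 0.29). The other tested ABCF2 probe sets had -0.21 (207622_s_at, with all DHT arrays below the controls), 0.20 and 0.48. None of them passed in limma (adjusted p = 0.201 to 0.636 over probe sets). These values are relative to the average transcript. With spike scaling ABCE1 had -0.57, ABCF1 -0.56 and ABCF3 -0.42, and all of them passed as lower. So did 6909 of the 14105 genes tested with that scaling, and whether it reflects the RNA content of the cells was not tested.

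The probe sets of several members differed in the sign of their difference or in their call. Of the 107 probe sets that name a member alone, 49 were above the limit, and 4 of these passed as higher and 4 as lower, beside 10.3% of all 32768 probe sets. The higher ones were the 3 of ABCC4 and 1 of ABCC1, and the lower ones were both of ABCA2, 1 of ABCG1 and 1 of ABCD3. In 15 members more than 1 probe set was above the limit. The change of each other probe set was tested against that of the brightest, an analysis added after these values had been seen. Of 21 such pairs, 0 passed an adjusted p of 0.05 in limma, beside 0.595% of all 12270 pairs that passed. At an unadjusted p under 0.05 there were 5, and the share of all pairs at that level was not counted. The 5 were in ABCA2 (other minus brightest -0.69 ± 0.15, limma adjusted p = 0.0849), ABCD3 (-0.53 ± 0.13, adjusted p = 0.0907), ABCB8 (-0.66 ± 0.17, adjusted p = 0.113), ABCG1 (0.60 ± 0.19, adjusted p = 0.155) and ABCC1 (-0.52 ± 0.20, adjusted p = 0.201). For ABCC4 the other probe sets differed from the brightest by -0.01 ± 0.24 and -0.15 ± 0.18. The control probe sets for transcript ends also moved: 3′ over 5′ signal was 1.37 ± 0.05 without and 1.77 ± 0.07 after DHT for ACTB, and 0.904 ± 0.044 and 1.06 ± 0.05 for GAPDH (SD over 3 arrays). Its part in these differences was not tested.

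**Figure D5:**
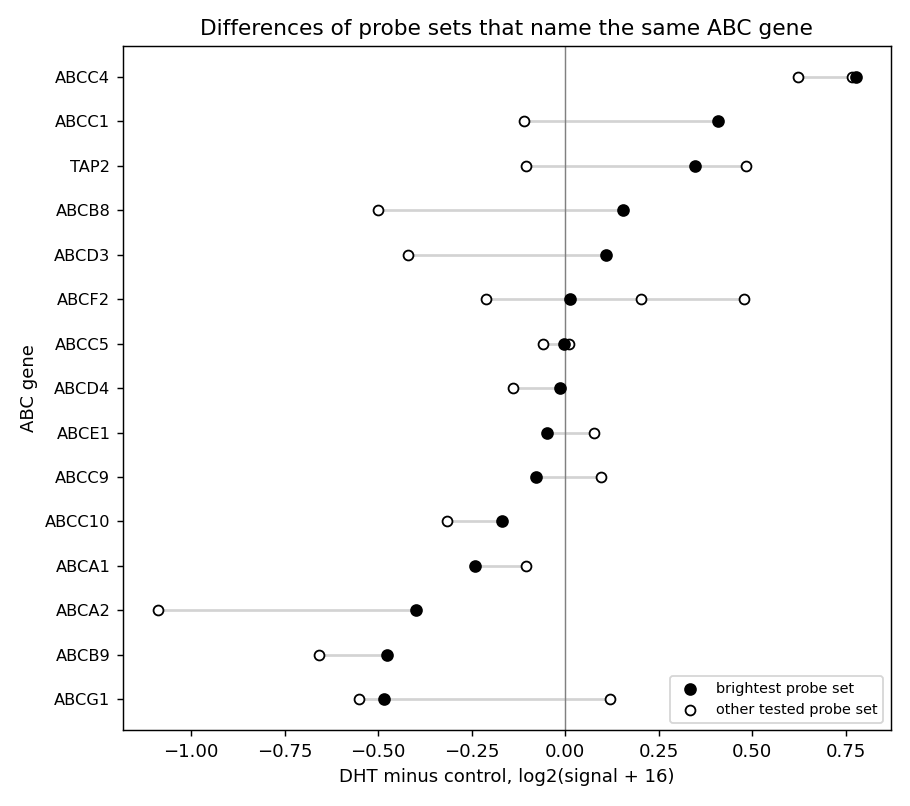
DHT minus control on the log2(signal + 16) scale for the 15 ABC genes with more than 1 probe set above the limit, with the brightest probe set filled and the others open. The ABCC4 probe sets lie together between 0.62 and 0.78, while those of ABCC1, ABCB8, ABCD3 and ABCG1 lie on both sides of 0 and those of ABCA2 lie at -0.40 and -1.09.

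Genes that work with the transporters were read from lists drawn up from textbook knowledge. Of 18 tested partners of ABC proteins 1 rose and 2 fell, 16.7% against 13.3% of all genes. B2M, the light chain of class I molecules that TAP supplies with peptides, rose from 2836 to 4760 (0.74, limma adjusted p = 4.31e-05), but had 0.21 with spike scaling (adjusted p = 0.106), where 0 partners passed as higher and 10 as lower. BSG, a membrane glycoprotein that accompanies transporters, fell from 1652 to 1160 (-0.50, adjusted p = 0.0025). TAPBP, or tapasin, which tethers class I molecules to TAP, fell from 587 to 441 (-0.40, adjusted p = 0.0154), but had 0.01 when its probe sets were averaged. It did not pass without the intensity trend (adjusted p = 0.0904), without control replicate 3 (0.0607) or without DHT replicate 2 (0.0596). The chaperone CALR, next by p, had -0.38 (adjusted p = 0.115).

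Glutathione conjugates are exported by members of subfamily C such as ABCC1. The list of glutathione genes covers synthesis, conjugation, peroxidases, reduction, breakdown and cystine import. Of its 28 tested genes 1 rose and 5 fell, or 21.4% against 13.3% of all genes tested. GSTA4 fell from 531 to 367 (-0.51), GSTK1 from 396 to 291 (-0.42) and GSTA1 from 114 to 65.4 (-0.68), all conjugating enzymes, while SLC7A11, which imports cystine for glutathione, rose from 760 to 1062 (0.47). GPX4 (-0.28) and GCLC (-0.37), which limits the rate of synthesis, completed the count. GSTA1 had -0.77 to 0.29 when 1 array was left out and the probe set was chosen again from the arrays kept, and 2 to 3 genes of the list then passed as lower. SLC7A11 had -0.05 with spike scaling, and did not pass without DHT replicate 3, with equal array medians, without the intensity trend or with averaged probe sets. The number that passed as lower was 18 with spike scaling, 4 with equal array medians, 3 with no limit on dim probe sets, 2 with averaged probe sets and 1 without the trend. Of 10 tested regulators of ABC genes 1 passed, or 10% against the same 13.3%. YBX1, a DNA- and RNA-binding protein, fell (-0.28, limma adjusted p = 0.0265). It did not pass in 6 of 18 alternatives (limma adjusted p up to 0.133). Among these were no limit on dim probe sets (adjusted p = 0.0744) and leaving out control replicate 1 or 2 or DHT replicate 2 or 3 (0.0578 to 0.114). HIF1A had -0.22, the retinoid X receptor RXRB 0.30 and the nuclear receptor NR1I3, also called CAR, 0.60, and none of them passed. The control mean of NR1I3 was 15.5, under the limit on dim probe sets, and its DHT mean was 31.0. NR1H3, or LXR alpha, gave 94.5 in the controls and 90.1 with DHT. Of 17 tested SLC carriers of drugs and bile acids, 0 passed in limma, against 13.3% of all genes, and 1 had an unadjusted p under 0.05. By p these began with SLCO1A2 (0.71), SLC22A5 (0.20), SLCO2A1 (-0.33) and SLC47A2 (0.43). SLCO1A2 was the 1 with an unadjusted p under 0.05. It and SLC47A2 had control means of 10.97 and 14.4, under the limit on dim probe sets, and DHT means of 27.1 and 24.8.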

How the data were processed

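RNA of 6 LNCaP cultures was measured on Affymetrix arrays with 1 colour. The deposited values are linear signal intensities. The submitters' processing notes name MAS5 as the tool that the authors used, without a version. Samples were grouped by title, and all columns of the table were used. The deposited arrays share a common scale, so that differences are relative to the average transcript, and no further normalisation was applied. The 62 array control probe sets were left out. Of the rest, 41097 name 1 gene in the platform's annotation, and 1801 that name several named none here. Symbols were looked up in a RefSeq gene table, which matched 41043 and changed 0.

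Each gene was read from its brightest single-gene probe set by the mean of all 6 arrays, one ending in _x_at only where no other exists. Tests ran on log2(signal + 16), which understates the change of dim genes, with limma 3.58.1 in R 4.3.3 (lmFit, and eBayes with an intensity trend, 4 residual degrees of freedom) and Benjamini-Hochberg adjustment over 14121 genes, or over 32768 probe sets where stated. The fit was tested on simulated data. The members and lists were chosen with earlier results of these data known. The members named are those that passed, ABCC4, in each subfamily the brightest and the one with the largest difference, and from each list the 4 with the smallest p. All other members and list genes, and the ABCA5 and ABCA6 promoters, were added after values were seen, to account for the whole family or a small count. Motifs were searched with Python 3.11.15. Alternatives tried were a pseudocount of 1 or 64, the limit on dim probe sets removed or raised to 60%, quantile, median and spike scaling, the replicate block, no trend or a robust fit, the mean of probe sets, a wider use of _x_at probe sets, and leaving out each array.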

Additional observations from a re-analysis of the deposited data

How the results depend on the processing

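As reported, 2 ABC genes passed as higher and 2 as lower. The higher count was 1 with equal array medians, without the intensity trend and with averaged probe sets, and 0 with spike scaling; it was 2 whichever array was left out. The lower count was 1 with a pseudocount of 1, with no limit on dim probe sets and with the mean of probe sets, 0 without the trend and 15 with spike scaling, and 0 to 2 when 1 array was left out. Both counts were 2 with a pseudocount of 64, the limit at 60%, quantile normalisation, the robust fit and wider use of _x_at probe sets. The median difference of the 45 members was -0.26 with spike scaling, where the median of all genes was -0.35, and 0.00 to 0.05 when 1 array was left out. ABCC4 passed in 17 of 18 alternatives and had 0.26 in the other, spike scaling. That scaling turned ABCC1 to -0.11, ABCD3 to -0.41, ABCF3 to -0.42 and SLC7A11 to -0.051. TAPBP was 0.0084 with averaged probe sets, and GSTA1 ranged from -0.77 to 0.29 when 1 array was left out. The causes were not tested. Over all genes 847 passed without the trend and 1202 with equal medians, 7048 with spike scaling and 1246 to 1445 when 1 array was left out, against 1878 as reported. With the replicate number as a block, 2 ABC genes passed as higher and 2 as lower, and 1828 genes in all. Same-numbered arrays correlated at r = -0.03 to 0.00 in their deviations from the group means, and 0 of 6 arrays correlated best with its own number. No shared deviation was thus seen. With 3 arrays per group this cannot settle whether the numbers pair the cultures, which the labels do not say. Only 3 arrays per group and weak signals near the limit of 17.3 restrict what can be seen.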

Other observations

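A pair of probe sets name an ABC gene together with another gene and were not counted among its probe sets. Probe set 209994_s_at, which names both ABCB4 and ABCB1, gave 6.73, 12.5 and 2.39 in the controls and 3.03, 13.2 and 2.04 with DHT, below the limit of 17.3 on every array. Probe set 207561_s_at, which names ABCB8 and the acid-sensing channel ASIC3, gave 17.4, 18.2 and 19.4 in the controls and 33.2, 20.3 and 8.08 with DHT. Its DHT arrays lay on both sides of the controls, with a difference of 0.03 ± 0.28 on the log2 scale (SE; limma adjusted p = 0.968 over probe sets).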
